A study of Rattus norvegicus with 44 samples.

Results

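The fatty acid binding proteins described here are *Fabp7*, *Fabp1*, *Fabp2*, *Fabp3* and *Fabp5*, read on rat expression arrays in liver and kidney. Each is measured by 1 probe set (a set of short probes against 1 transcript) whose platform annotation names that gene alone, which makes 5 of the 20826 probe sets annotated with exactly 1 gene. *Fabp7* was chosen by its low liver values at the top doses, known from earlier results, so its liver changes are given as a description with no test. The other members were taken as its relatives by name and were tested. Rats were male Harlan Sprague Dawley animals, 6 to 8 weeks old at group assignment and fed NTP-2000 diet. They received crude 4-methylcyclohexanemethanol (MCHM, an alcohol mixture used in coal washing) in corn oil by gavage for 5 days, in a volume of 5 mL/kg, and tissues were collected the day after the last dose. The 7 groups of each organ were corn oil alone (vehicle, 0 mg/kg), 3 lower daily doses of MCHM (0.1, 1 and 10 mg/kg) and 3 higher ones (100 mg/kg, 300 mg/kg and 500 mg/kg), so that every animal, controls too, had gavage with corn oil. Liver had 27 arrays, 4 per group except 3 at 0.1 mg/kg, and kidney had 17, with 3 at 0, 300 and 500 mg/kg and 2 at the other doses. Precision is limited by how many arrays a group holds.

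Fatty acid binding proteins are small cytosolic carriers that hold a long-chain fatty acid or a related lipid inside a barrel of beta strands and move it between membranes, storage, oxidation and nuclear receptors. Each member is named after the tissue where it was first found: *Fabp1* is the liver form and one of the most abundant cytosolic proteins of hepatocytes, *Fabp2* the intestinal form, *Fabp3* the heart and muscle form, *Fabp5* the epidermal form and *Fabp7* the brain form of radial glia and astrocytes. *Fabp1* is a classical target of PPARA, the receptor through which fatty acids switch on their own oxidation, and in mouse brain the *Fabp7* transcript cycles over the day under repression by the clock receptor *Nr1d1*.

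The sequences just before the transcription starts are shown for the brain, liver and heart forms, because these carried the clearest organ levels in the arrays. Of the 5 members, 4 had an entry in the RefSeq promoter table (assembly GRCr8), namely *Fabp7*, *Fabp1*, *Fabp2* and *Fabp3*. Each line gives the 250 bases before the start, 5′ to 3′, with TATAAA (the TATA box core) and AGGTCA (the half-site of PPAR and related nuclear receptors) in capitals. On the opposite strand AGGTCA reads TGACCT.
Fabp7, chr20:37669356-37669605 (+): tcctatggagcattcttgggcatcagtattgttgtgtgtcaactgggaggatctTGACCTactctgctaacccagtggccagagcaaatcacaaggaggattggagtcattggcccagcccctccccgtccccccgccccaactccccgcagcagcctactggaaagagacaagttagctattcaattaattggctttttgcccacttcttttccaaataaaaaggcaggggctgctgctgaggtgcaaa
Fabp1, chr4:104749090-104749339 (+): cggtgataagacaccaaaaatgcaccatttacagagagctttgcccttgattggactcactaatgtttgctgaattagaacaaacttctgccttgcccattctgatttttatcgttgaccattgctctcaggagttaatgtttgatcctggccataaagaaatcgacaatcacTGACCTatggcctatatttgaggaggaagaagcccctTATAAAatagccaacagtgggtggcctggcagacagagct
Fabp3, chr5:147935875-147936124 (+): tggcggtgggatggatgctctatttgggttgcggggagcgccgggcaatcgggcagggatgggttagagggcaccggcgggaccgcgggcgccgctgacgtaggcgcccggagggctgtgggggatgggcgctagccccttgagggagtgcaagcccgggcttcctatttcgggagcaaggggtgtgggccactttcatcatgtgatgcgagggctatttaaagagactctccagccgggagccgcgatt
The *Fabp1* window held TATAAA, which began at position −40 (−1 is the last base before the start, and positions name the leftmost base of a match), and the *Fabp7* and *Fabp3* windows held none. AGGTCA lay on the opposite strand at −77 in *Fabp1* and at −196 in *Fabp7*. The *Fabp2* and *Fabp3* windows had no match to either of these motifs, to TTGGC (a nuclear factor I half-site), to CACGTG (an E-box) or to GTTAAT (an HNF1 half-site) on either strand. *Fabp7* had TTGGC at −141 and −60, and *Fabp1* had it on the opposite strand at −31 and GTTAAT at −117. Of 33469 RefSeq rat promoters of the same 300-base length (250 before to 50 after the start), 14.2% held TATAAA, 16.2% AGGTCA, 45.8% TTGGC, 6.42% CACGTG and 7.45% GTTAAT. The GC content of the 300-base window was 51.3% for *Fabp7*, 44.3% for *Fabp1*, 41.3% for *Fabp2* and 65% for *Fabp3*, against a median of 51.7% over all promoters. These matches are letters in a window, and no array value bears on binding there.

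Values are the deposited log2 expression values, and a difference of 1 on that scale is a doubling. Differences are taken for 1 probe set across arrays. Levels are set beside other probe sets only to show how dim or bright a reading is. Array medians lay between 5.28 and 5.36. *Xist*, the RNA that coats a second X chromosome, had 4 probe sets that read 8.25 or more in vehicle liver replicate 2 and 6.95 or more in vehicle kidney replicate 2, although both are labelled male. In the other arrays those probe sets lay between 2.29 and 3.47 in liver and between 2.16 and 3.02 in kidney, and the Y-linked *Eif2s3y* read 9.26 and 10.02 in the liver and kidney arrays that stood apart. Kidney replicate 1 at 1 mg/kg carried hepatocyte transcripts: albumin (*Alb*) read 11.06 there, against 3.85 to 5.86 in the other 16 kidney arrays, and transthyretin (*Ttr*) 9.32, against 4.29 to 5.76. The members' differences at the top dose and between organs are given with and without vehicle replicate 2. For *Fabp1*, *Fabp7* and *Fabp3* the kidney differences at 1 mg/kg are given with and without the array with hepatocyte transcripts. The labelled organs had their markers otherwise: 8 measured hepatocyte markers averaged 13.91 to 14.03 in liver arrays, and 8 proximal tubule markers averaged 11.50 to 12.01 in kidney arrays.

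*Fabp7* was lower in livers of dosed rats than in vehicle livers, from the lowest dose on. The 4 vehicle livers read 12.04, 12.18, 12.24 and 12.18. At 0.1 mg/kg the livers read 12.02, 11.71 and 12.01, and at 1 mg/kg they read 12.02, 11.76, 12.11 and 11.94. At 10 mg/kg *Fabp7* read 11.84, 11.92, 12.01 and 11.72, and at 100 mg/kg 11.86, 11.69, 11.80 and 11.79. All of these dosed livers but 1 at 1 mg/kg lay under the lowest vehicle liver. At 300 mg/kg the livers read 11.74, 11.85, 11.49 and 11.62, and at 500 mg/kg they read 11.32, 11.49, 11.50 and 11.46. Over all doses 22 of 23 dosed livers were below the lowest vehicle liver and none was above the highest. Every dose was set against the same 4 vehicle livers, and the share of all probe sets with such counts was not taken.

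The *Fabp7* difference from vehicle was −0.25 (SE 0.10) at 0.1 mg/kg, −0.20 (SE 0.09) at 1 mg/kg and −0.29 (SE 0.09) at 10 mg/kg. It was −0.37 at 100 mg/kg, −0.49 at 300 mg/kg and −0.72 at 500 mg/kg (SE 0.09 each), so that the transcript stood at 0.608 of its vehicle level at the top dose. Group means were 11.44 ± 0.08 (SD, n = 4) at 500 mg/kg and 12.16 ± 0.09 (SD, n = 4) in vehicle livers. The slope over the dose levels, coded 0 to 6, was −0.102 per level (SE 0.013). Neighbouring doses could not be told apart array by array: each dose group overlapped the next lower one, except that 0.1 mg/kg lay wholly below vehicle. The widest steps between neighbouring doses were the first (−0.25, 0.1 mg/kg minus vehicle) and the last (−0.23, 500 minus 300 mg/kg). Without vehicle replicate 2, the array with *Xist* signal, the differences were −0.71 at 500 mg/kg and −0.48 at 300 mg/kg, between −0.37 and −0.19 at the lower doses, and the lowest vehicle liver is another one. Of all 31042 probe sets, 0.177% passed the threshold (limma, adjusted p under 0.05) at 500 mg/kg, 0.122% at 300 mg/kg and 0.245% in the trend. These shares are given for scale only, since the liver contrasts chose *Fabp7*.

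**Figure D1:**
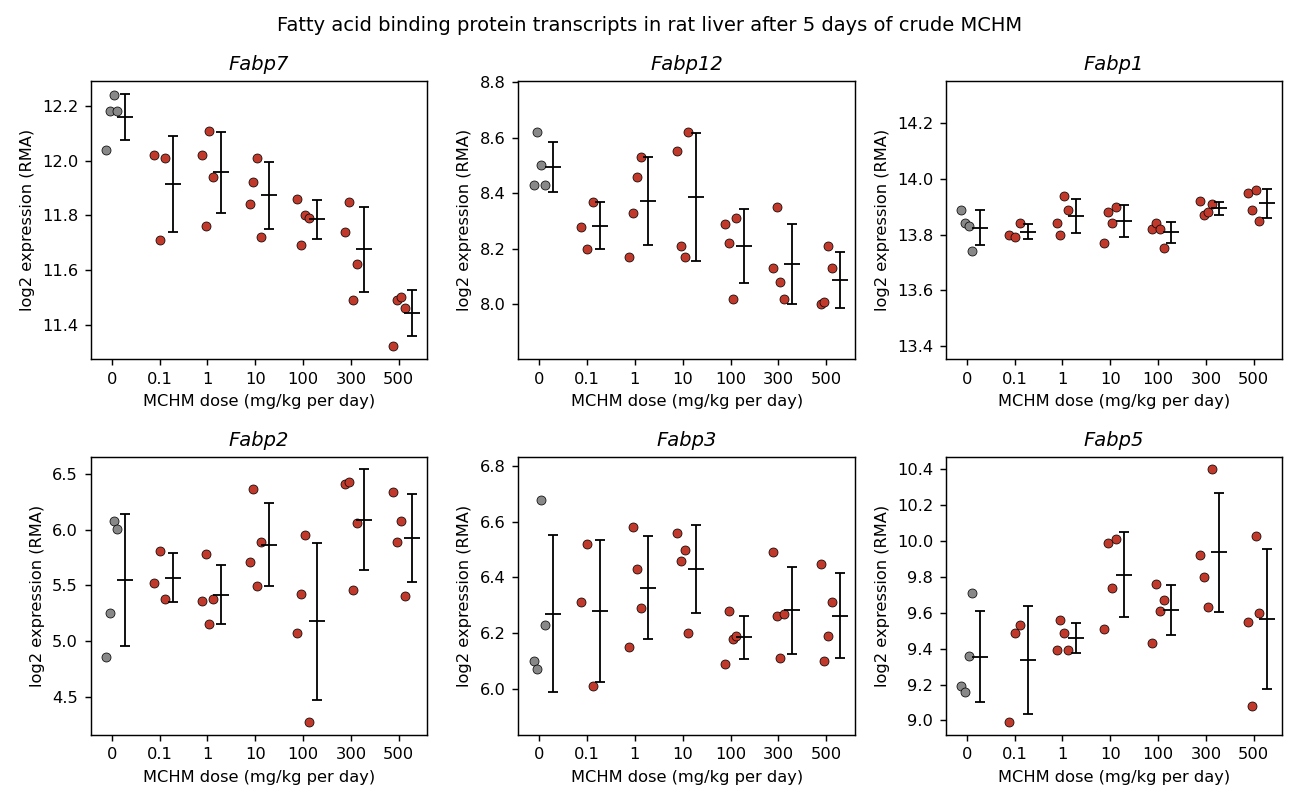
Liver log2 expression (y axis, a range of its own in each panel) against MCHM dose in mg/kg per day (x axis, equally spaced dose groups) for *Fabp7*, *Fabp12*, *Fabp1*, *Fabp2*, *Fabp3* and *Fabp5*. Each point is 1 array (grey vehicle, red dosed) and the bar beside it is the group mean ± SD; *Fabp7* stands at 11.32 to 11.50 at 500 mg/kg, under the 12.04 to 12.24 of vehicle livers, while *Fabp1* stays between 13.74 and 13.96 at every dose.

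RNA came from the tissue in bulk, so fewer cells of a type and less RNA per cell cannot be told apart. Markers of some other liver cells read lower at 500 mg/kg, as *Fabp7* did, without any marker passing the threshold. The median difference was −0.31 over 10 stellate cell and fibroblast markers, of which 0 were above 0, and −0.18 over 9 macrophage markers, of which 1 was above 0. It was −0.25 over 5 cholangiocyte markers, −0.16 over 7 endothelial and −0.12 over 6 lymphocyte markers. Without vehicle replicate 2 these medians were −0.27, −0.18, −0.05, −0.16 and −0.10, so that of the cholangiocyte markers rested largely on that array. With all vehicle livers the medians at 300 mg/kg were −0.30, −0.03, −0.07, −0.07 and 0.05, in the same order. At 1 mg/kg they were −0.05, 0.14, −0.22, 0.04 and −0.01. The *Fabp7* difference was −0.49 and −0.20 at these doses. The mean level of the stellate cell and fibroblast markers ranged from 7.0 to 7.17 at 500 mg/kg and from 7.27 to 7.54 in vehicle livers. The mean of the macrophage markers ranged from 8.44 to 8.53 at 500 mg/kg and from 8.45 to 8.92 in vehicle livers. Glia and peripheral nerve, the cells in which the brain form is best known, had 4 measured markers. Their mean ranged from 5.07 to 5.31 at 500 mg/kg and from 5.15 to 5.45 in vehicle livers. Their median difference was −0.03, and −0.11 without vehicle replicate 2. Hepatocyte markers had a median difference of −0.04. In the trend 1 marker of these lists passed, the apolipoprotein *Apoa4* of the enterocyte list, which liver also makes, with a slope of −0.093 per level (SE 0.021, limma adjusted p = 0.0476). The part of these cells in the *Fabp7* difference was not tested.

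*Fabp1*, the liver form, varied little between livers, dosed or not. At 500 mg/kg the livers read 13.95, 13.89, 13.96 and 13.85, against 13.89, 13.84, 13.83 and 13.74 in vehicle livers, and the groups overlapped. All 27 livers lay between 13.74 and 13.96, a span of 0.22, whereas *Fabp7* spanned 0.92. The *Fabp1* difference was 0.09 (SE 0.06, 95% interval −0.04 to 0.21, limma adjusted p = 0.728) at 500 mg/kg and 0.07 (SE 0.06, −0.05 to 0.20, adjusted p = 0.755) at 300 mg/kg, and 0.09 and 0.08 without vehicle replicate 2. At the 4 lower doses its difference ranged from −0.02 to 0.04, and its slope was 0.013 per level (SE 0.008, adjusted p = 0.571). The probe set lies near the top of the table's range, which ends at 14.85, and whether its signal was saturated is not known from these values.

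*Fabp5*, the epidermal form, read higher at some doses than in vehicle livers but did not pass the threshold. At 300 mg/kg the livers read 9.92, 9.80, 9.63 and 10.40, against 9.19, 9.16, 9.36 and 9.71 in vehicle livers. The highest vehicle liver lay above the lowest of the dosed ones. The difference was 0.58 (SE 0.17, limma unadjusted p = 0.00259, adjusted p = 0.198). At 10 mg/kg the livers read 9.51, 9.99, 9.74 and 10.01, a difference of 0.46 (SE 0.17, limma adjusted p = 0.85). At 500 mg/kg they read 9.55, 9.08, 10.03 and 9.60 and enclosed the whole vehicle range, with a difference of 0.21 (SE 0.17, 95% interval −0.15 to 0.57, limma adjusted p = 0.784). The order of the *Fabp5* means did not follow dose, and its slope was 0.069 per level (SE 0.026, limma adjusted p = 0.268). Without vehicle replicate 2 the differences were 0.52 at 300 mg/kg (adjusted p = 0.407) and 0.15 at 500 mg/kg (adjusted p = 0.903). Of the 23 dosed livers 8 were above the highest vehicle liver and 2 below the lowest, counts with no share of all probe sets beside them.

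*Fabp2*, the intestinal form, varied widely between livers of 1 group. At 500 mg/kg the livers read 6.34, 5.89, 6.08 and 5.40, against 4.86, 5.25, 6.08 and 6.01 in vehicle livers. The groups overlapped over most of their ranges. The difference was 0.38 (SE 0.30, 95% interval −0.24 to 1.00, limma adjusted p = 0.774) at 500 mg/kg and 0.55 (SE 0.30, −0.07 to 1.16, adjusted p = 0.575) at 300 mg/kg. Without vehicle replicate 2 they were 0.28 and 0.45. The lowest liver of all, 4.27, was at 100 mg/kg and the highest, 6.43, at 300 mg/kg.

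*Fabp3*, the heart form, showed no difference past the threshold in liver. It read 6.45, 6.10, 6.19 and 6.31 at 500 mg/kg, against 6.10, 6.07, 6.68 and 6.23 in vehicle livers, and the dosed values lay inside the vehicle range. The difference was −0.01 (SE 0.13, 95% interval −0.28 to 0.26, limma adjusted p = 0.992) at 500 mg/kg and 0.01 (SE 0.13, −0.25 to 0.28, adjusted p = 0.989) at 300 mg/kg, and −0.08 and −0.05 without vehicle replicate 2. Thus of the 4 tested members 0 passed in liver at 500 mg/kg, at 300 mg/kg or in the trend, beside the 0.177%, 0.122% and 0.245% of all probe sets given above. There 2792, 3050 and 3484 of all probe sets had an unadjusted p under 0.05 with limma. At 0.1, 1, 10 and 100 mg/kg 0 of these 4 passed either, beside 0% of all probe sets at each of these doses, with 1582, 1565, 1724 and 1872 at an unadjusted p under 0.05.

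Of the 5 other genes of the family, *Fabp12* had the largest liver differences at 500 and 300 mg/kg, and like *Fabp7* it read lower in dosed livers. Its probe set is annotated through an expressed sequence tag, and little is known of the protein. At 500 mg/kg it read 8.00, 8.01, 8.21 and 8.13, against 8.43, 8.62, 8.50 and 8.43 in vehicle livers, and at 300 mg/kg 8.13, 8.35, 8.08 and 8.02. All livers at these doses, at 100 mg/kg and at 0.1 mg/kg lay below all vehicle livers, and those at 1 and 10 mg/kg overlapped them. In all, 19 of 23 dosed livers were below the lowest vehicle liver. Every dose was set against the same 4 vehicle livers. The share of all probe sets that separate in this way was not counted. The dim *Fabp9* at 1 mg/kg and *Pmp2* at 100 mg/kg also lay wholly below vehicle livers.

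The *Fabp12* difference was −0.41 (SE 0.10, limma adjusted p = 0.14) at 500 mg/kg and −0.35 (SE 0.10, adjusted p = 0.195) at 300 mg/kg, and the slope was −0.062 per level (SE 0.014, adjusted p = 0.0527). None of these passed, though the trend's adjusted p ranged from 0.0209 to 0.12 over its alternative settings and the difference at 500 mg/kg passed under a second quantile normalization (−0.43, limma adjusted p = 0.0484). Across the 27 livers *Fabp12* and *Fabp7* correlated at r = 0.65, and at 0.09 once each dose group's mean was taken off. The arrays share dose groups and normalization, and the values are a description.

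*Fabp4*, the adipocyte form, read 3.98 to 6.09 in liver, with a difference of 0.23 (SE 0.32, limma adjusted p = 0.89) at 500 mg/kg. *Fabp6*, the bile acid binding protein of the ileum, *Fabp9*, the testis form, and *Pmp2*, the myelin form, stayed between 2.39 and 3.59 in both organs. None of the 5 passed the threshold at any dose in either organ. In the rat gene table *Fabp12*, *Fabp4*, *Fabp9*, *Pmp2* and *Fabp5* neighbour each other on 1 chromosome, and *Fabp7* lies on another.

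**Figure D2:**
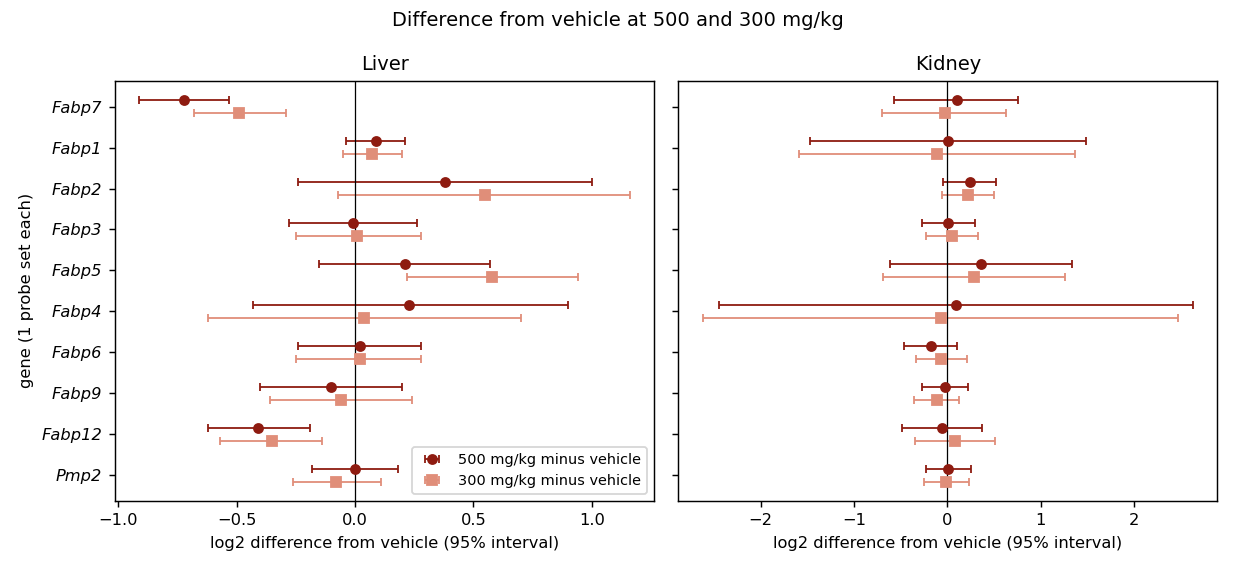
Log2 difference from vehicle (x axis, with 95% intervals from limma) for 10 fatty acid binding protein genes (y axis) at 500 mg/kg (dark circles) and 300 mg/kg (light squares), liver in the left panel and kidney in the right, each with its own scale. *Fabp7* in liver, at −0.72 and −0.49, is a description and was not tested; the kidney intervals of *Fabp4* and *Fabp1* are the widest.

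In kidney, the organ where it read higher, the heart form *Fabp3* showed no difference past the threshold at any dose. At 500 mg/kg the kidneys read 11.64, 11.74 and 11.50, against 11.39, 11.84 and 11.61 in vehicle kidneys, so the dosed values lay inside the vehicle range. The difference was 0.01 (SE 0.13, 95% interval −0.27 to 0.30, limma adjusted p = 0.985) at 500 mg/kg and 0.05 (SE 0.13, adjusted p = 0.999) at 300 mg/kg. Without vehicle kidney replicate 2 they were 0.13 (adjusted p = 0.952) and 0.17 (adjusted p = 1). At 1 mg/kg the 2 kidneys read 11.84 and 12.12, a difference of 0.36 (SE 0.15, adjusted p = 0.705), and 0.51 without replicate 1, the array with hepatocyte transcripts (adjusted p = 0.953). The 0.51 rests on replicate 2 alone, which also had the highest *Fabp4* reading (11.50) and the highest adipocyte marker mean (7.69) of the kidneys. Across the 17 kidneys *Fabp3* and *Fabp4* correlated at r = 0.77, and at 0.83 within dose groups, a description over arrays that share normalization. The part of fat transcripts in the *Fabp3* readings was not tested. Across all 17 kidneys *Fabp3* spanned 0.73.

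*Fabp5* in kidney varied widely between arrays of 1 group. The kidneys at 500 mg/kg read 9.06, 9.45 and 9.12, against 8.80, 8.21 and 9.54 in vehicle kidneys. Both kidneys at 100 mg/kg, at 8.00 and 10.21, were the extremes of the whole organ. The difference at 500 mg/kg was 0.36 (SE 0.45, 95% interval −0.61 to 1.34, limma adjusted p = 0.832). It was 0.04 (adjusted p = 0.994) without vehicle kidney replicate 2, the array with *Xist* signal, which had the lowest vehicle reading, and 0.71 (adjusted p = 0.822) without replicate 3. *Fabp2* was dim in kidney, 3.08 to 3.75, with a difference of 0.24 (SE 0.13, −0.05 to 0.52, adjusted p = 0.571) at 500 mg/kg, and the same 0.24 without vehicle kidney replicate 2.

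*Fabp1* and *Fabp7* read low in kidney except in 1 array. *Fabp1* read 7.75 in kidney replicate 1 at 1 mg/kg and 2.90 to 3.81 in the other 16 kidneys. *Fabp7* read 4.45 in that array and 2.42 to 3.33 in the others. It is the array with hepatocyte transcripts: the mean of the 8 hepatocyte markers was 7.95 there and 4.54 to 4.97 in the other kidneys. Of these markers *Ahsg* read 8.15, *Serpina1* 7.64, *Fgb* 7.12, *Apoa1* 6.23 and *Cps1* 3.98 in it, each above the highest other kidney, while *Apoc3*, at 10.09, did not stand apart from the others' 9.27 to 10.13. With this array the differences at 1 mg/kg were 2.26 (SE 0.77, limma adjusted p = 0.672) for *Fabp1* and 0.81 (SE 0.35, adjusted p = 0.71) for *Fabp7*. Without it they were 0.10 and 0.00 (adjusted p = 0.999 each).

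At the top dose neither *Fabp1* nor *Fabp7* passed the threshold in kidney. For *Fabp7* the kidneys at 500 mg/kg read 2.88, 3.10 and 2.80, against 2.77, 2.79 and 2.94 in vehicle kidneys, a difference of 0.10 (SE 0.31, 95% interval −0.57 to 0.76, limma adjusted p = 0.946). For *Fabp1* the difference was 0.01 (SE 0.69, −1.47 to 1.49, adjusted p = 0.999). Without vehicle kidney replicate 2 these were 0.07 for *Fabp7* and 0.09 for *Fabp1*. The liver change minus the kidney change of *Fabp7* at 500 mg/kg was −0.81 (SE 0.28), a description because it contains the liver contrast that chose the gene. Only 9.02% of probe sets in kidneys at 500 mg/kg and 7.28% in vehicle kidneys read below *Fabp7*, too low for a fall in kidney to be seen, so this organ difference restates the liver change. For *Fabp1*, *Fabp2*, *Fabp3* and *Fabp5* that organ difference ran from −0.15 to 0.15 with limma adjusted p of 0.953 to 0.989, and 0 of 4 passed, beside 0.029% of all probe sets (3075 at an unadjusted p under 0.05). The *Fabp5* value, −0.15, was 0.17 without vehicle kidney replicate 2 and −0.49 without replicate 3 (limma adjusted p = 0.98 and 0.891). At 300 mg/kg the organ difference ran from −0.04 to 0.32 and 0 of 4 passed, beside 0% of all probe sets (1961 at an unadjusted p under 0.05, limma).

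*Fabp4* in kidney was highest in the array with the highest adipocyte markers. It went from 5.67 to 11.50 over the 17 kidneys, with the highest reading in replicate 2 at 1 mg/kg. The mean of 8 adipocyte markers was also the highest there, 7.69. At 10 and 100 mg/kg *Fabp4* ran from 5.79 to 7.68, while the marker means lay between 5.09 and 5.31. Vehicle kidneys alone ran from 6.02 to 9.14. The difference at 500 mg/kg was 0.09 (SE 1.19, 95% interval −2.45 to 2.63, limma adjusted p = 0.989). The adipocyte markers averaged 5.17 to 7.12 in kidneys at 500 mg/kg and 5.16 to 6.67 in vehicle kidneys, and their part in the *Fabp4* readings was not tested.

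In kidney 0 of the 5 members passed at any dose or in the trend. The share of all probe sets that passed was 0% at each of the 6 doses and in the trend. From the lowest dose to the highest, with limma, 1832, 2168, 1522, 1225, 1123 and 3131 had an unadjusted p under 0.05, and 2205 in the trend.

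**Figure D3:**
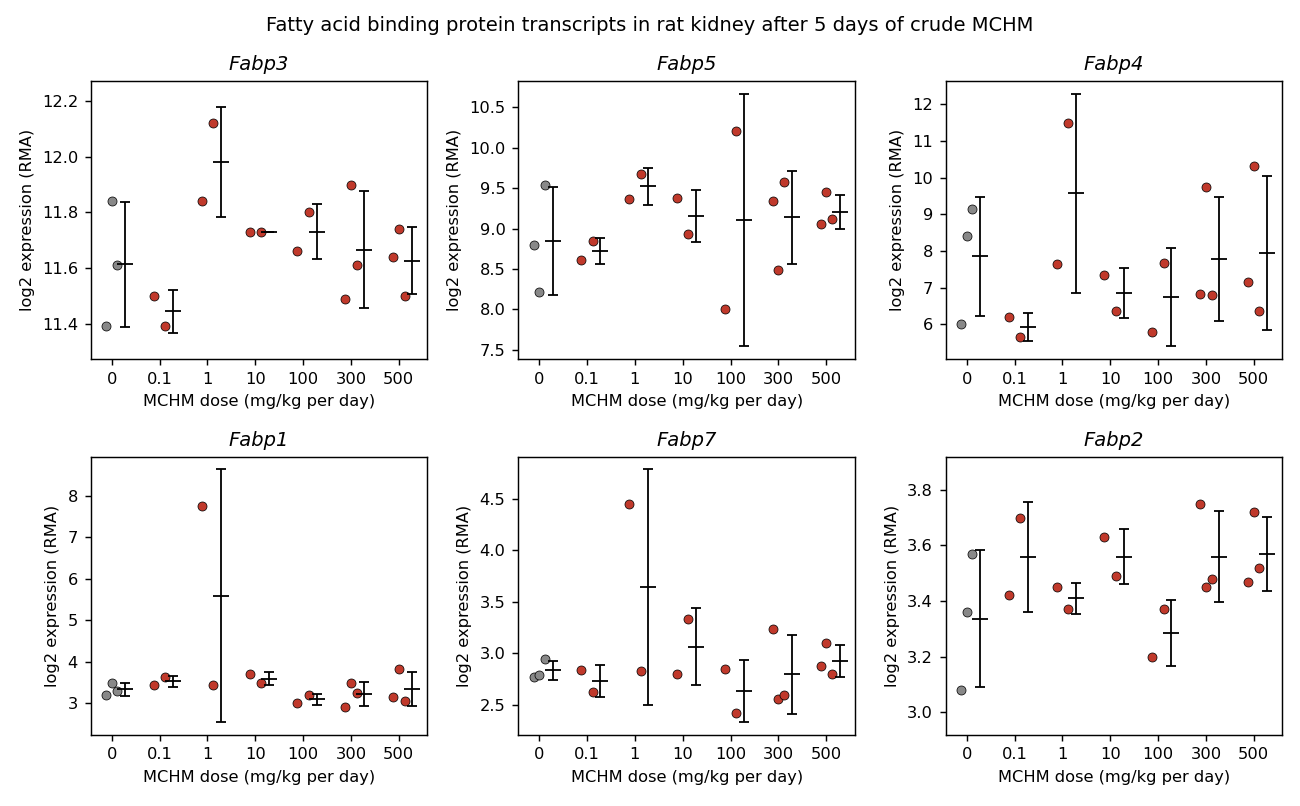
Kidney log2 expression (y axis, a range of its own in each panel) against MCHM dose in mg/kg per day (x axis, equally spaced dose groups) for *Fabp3*, *Fabp5*, *Fabp4*, *Fabp1*, *Fabp7* and *Fabp2*, with 1 point per array (grey vehicle, red dosed) and the group mean ± SD beside it. Groups hold 2 or 3 arrays, and 1 array at 1 mg/kg stands apart for *Fabp1* (7.75) and *Fabp7* (4.45).

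**Figure D4:**
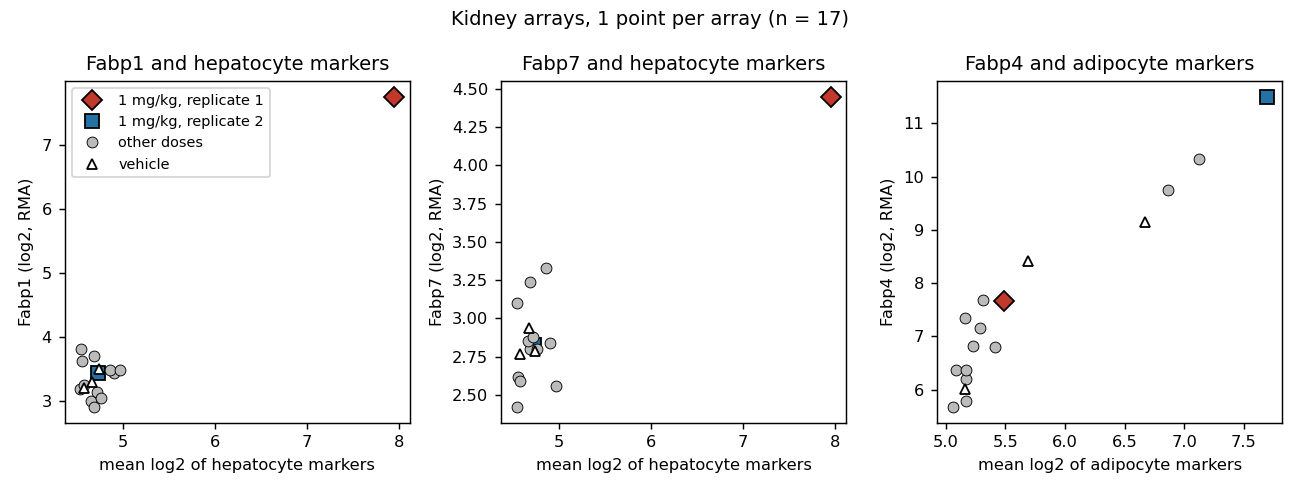
Log2 expression of *Fabp1*, *Fabp7* and *Fabp4* (y axes) against the mean log2 level of the hepatocyte or adipocyte markers (x axes) in the 17 kidney arrays, 1 point each: triangles vehicle, diamond and square the 2 arrays at 1 mg/kg, circles other doses. Replicate 1 at 1 mg/kg stands alone at a hepatocyte mean of 7.95, and *Fabp4* is highest (11.50) in replicate 2 at 1 mg/kg, where the adipocyte mean is 7.69.

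For *Fabp7*, *Fabp1*, *Fabp2* and *Fabp3* the organs of vehicle rats were farther apart than any dose group was from its vehicle group. *Fabp7* was higher in liver by 9.33 (SE 0.20, limma adjusted p = 5.87e-31), with 12.16 ± 0.09 (SD, n = 4) in vehicle livers and 2.83 ± 0.10 (SD, n = 3) in vehicle kidneys. *Fabp1* was higher in liver by 10.5 (SE 0.41, adjusted p = 1.07e-22), with 13.83 ± 0.07 (SD, n = 4) in livers and 3.33 ± 0.15 (SD, n = 3) in kidneys. *Fabp2* was higher in liver by 2.21 (SE 0.28, adjusted p = 1.68e-08). In vehicle kidneys only 7.28% of probe sets read below *Fabp7*, 16.2% below *Fabp1* and 16.5% below *Fabp2*. At these levels no signal above background can be shown, so the differences of *Fabp7*, *Fabp1* and *Fabp2* are lower bounds.

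*Fabp3* went the other way, with a liver minus kidney difference of −5.34 (SE 0.14, limma adjusted p = 1.91e-28) and means of 6.27 ± 0.28 (SD, n = 4) in vehicle livers and 11.61 ± 0.23 (SD, n = 3) in vehicle kidneys. *Fabp5* differed by 0.50 (SE 0.31, 95% interval −0.12 to 1.13, adjusted p = 0.156), and this value turned on single vehicle kidneys. It was 0.18 (limma adjusted p = 0.66) without vehicle kidney replicate 2, the array with *Xist* signal, and 0.85 (adjusted p = 0.0297) without replicate 3. Without vehicle kidney replicate 2 the other organ differences were 9.30 for *Fabp7*, 10.58 for *Fabp1*, 2.22 for *Fabp2* and −5.23 for *Fabp3*, and without vehicle liver replicate 2 they were 9.32, 10.49, 2.31 and −5.28, all past the threshold. Of the family's other genes *Fabp12* was higher in liver by 3.87 (SE 0.15, adjusted p = 5.60e-23) and *Fabp4* differed by −3.44 (SE 0.76, adjusted p = 1.92e-04). Of the 5 members 4 passed, beside 61.4% of all probe sets. Whether the organs were normalized together was not given in the sources used here.

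Genes that handle fatty acids beside the binding proteins were read from lists, written with earlier results of these data known. Of 15 measured genes of fatty acid uptake and activation, 0 passed the threshold upward and 1 downward at 500 mg/kg in liver, beside 0.177% of all probe sets. Their median difference was 0.05 against 0.00 over all probe sets, and 10 of 15 were above 0. The one that passed was *Acsl6*, an acyl-CoA synthetase, with a difference of −0.50 (SE 0.10, limma adjusted p = 0.0291). Without vehicle replicate 2 its difference was −0.52 and missed the threshold (adjusted p = 0.0626). The lipid droplet coat gene *Plin2* differed by 0.41 (SE 0.16, adjusted p = 0.41) and the transporter *Slc27a2* by 0.15 (SE 0.06, adjusted p = 0.416).

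Of 21 measured PPARA targets 3 passed the threshold upward and 0 downward at 500 mg/kg in liver, beside 0.177% of all probe sets. This list too was written with earlier results of these data known, so the count is a description. The list's median was 0.11, and 15 of 21 were above 0. *Eci1*, an enoyl-CoA isomerase of fatty acid oxidation, passed with 0.87 (SE 0.11, limma adjusted p = 3.14e-04). *Ehhadh*, the peroxisomal bifunctional enzyme, passed with 0.74 (SE 0.13, limma adjusted p = 0.0126). *Cyp4a1*, a fatty acid omega-hydroxylase, passed with 0.79 (SE 0.15, limma adjusted p = 0.0249). *Ehhadh* and *Cyp4a1* missed the threshold without vehicle replicate 2, where their differences were 0.71 (adjusted p = 0.0597) and 0.75 (adjusted p = 0.0926). All 3 genes missed it in the fit of only the 2 groups compared. At 300 mg/kg the list's median was −0.07, with 7 of 21 above 0, and none passed. The 3 genes above differed there by 0.17, 0.13 and 0.22. *Fabp1*, itself such a target, is described above and did not pass at either dose.

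Of 16 measured clock genes 0 passed in liver at 500 mg/kg, where the median was −0.04, or at 300 mg/kg, where it was −0.14 and 1 of 16 was above 0. The clock receptor *Nr1d2* differed by −0.91 (SE 0.45, limma adjusted p = 0.567), the period gene *Per3* by −0.33 (SE 0.16, adjusted p = 0.542) and *Per2* by 0.18 (SE 0.09, adjusted p = 0.556) at 500 mg/kg. The 4 measured retinoid-binding relatives, which share the barrel fold, had a median of 0.18 at 500 mg/kg and 0 passed: *Rbp2* differed by 0.24 (SE 0.25, adjusted p = 0.836), *Crabp2* by 0.22 (SE 0.18, adjusted p = 0.775) and *Rbp7* by 0.13 (SE 0.15, adjusted p = 0.866).

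In kidney no gene of these lists passed at 500 or 300 mg/kg. The smallest unadjusted p at 500 mg/kg belonged among the lipid genes to *Mttp*, the triglyceride transfer protein (0.67, SE 0.17, limma adjusted p = 0.36), with *Acsl1* at 0.47 (adjusted p = 0.377) and *Eci1* at 0.46 (adjusted p = 0.36). Among the clock genes *Nr1d1* differed by −0.98 (SE 0.23, adjusted p = 0.36), *Dbp* by −1.18 (SE 0.37, adjusted p = 0.364) and *Cry1* by 0.76 (SE 0.21, adjusted p = 0.36). Without vehicle kidney replicate 1, *Nr1d1* differed by −1.26 (adjusted p = 0.00438), *Dbp* by −1.63 (0.0162), *Cry1* by 0.93 (0.041) and *Eci1* by 0.59 (0.0322), all past the threshold. With another array left out, the adjusted p of each of these genes reached 0.891 (limma). The number of all probe sets past the threshold ran from 0 to 616 over such fits, so these calls are not particular to the lists.

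The liver transcripts whose pattern over the 27 arrays was most like that of *Fabp7*, among probe sets with 1 gene, were *Myh1* (a muscle myosin, Pearson r = 0.78), *Prdx4* (a peroxiredoxin of the endoplasmic reticulum, 0.78), *Serpina7* (thyroxine-binding globulin, 0.77), *Erlec1* (a lectin of the endoplasmic reticulum, 0.76), *Lcat* (the plasma enzyme that esterifies cholesterol, 0.75) and *Jchain* (the immunoglobulin joining chain, 0.73). *Serpina7*, for example, averaged 8.68 at 500 mg/kg and 10.14 in vehicle livers, and *Jchain* 5.78 and 6.58. The probe set annotated as *Myh1* averaged 9.12 and 10.2, whereas 8 striated muscle markers averaged only 3.88 to 4.02 in vehicle livers. Whether that probe set reads a muscle myosin in liver was not tested. The most opposite were *Suclg1* (a subunit of succinyl-CoA ligase, −0.83), *Abhd1* (an alpha/beta hydrolase, −0.82), *Blvrb* (biliverdin reductase B, −0.82) and *Uox* (urate oxidase, −0.81). With the dose group means taken off, r was between 0.12 and 0.41 for the first 6 and between −0.41 and −0.14 for the other 4. The arrays share dose groups and normalization.

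The other members had different companions. For *Fabp1* in liver they were *Cyp2c7*, a cytochrome P450 (0.76), *Akr1c1*, an aldo-keto reductase (0.76), and *Dbi*, the acyl-CoA binding protein (0.73), and these kept 0.65, 0.67 and 0.63 within dose groups. For *Fabp5* in liver they were *Acsl5*, an acyl-CoA synthetase (0.73), *Fasn*, fatty acid synthase (0.71), and *Pdhx*, a part of the pyruvate dehydrogenase complex (0.70), with 0.62, 0.69 and 0.55 within dose groups. For *Fabp2* in liver they were *Commd8* (0.67), *Samt3* (0.65) and *Nmbr* (0.65), with 0.58, 0.62 and 0.60 within dose groups. *Samt3* and *Nmbr* were dim, averaging 2.89 and 4.18 in vehicle livers. Without the 2 livers farthest from the *Fabp2* median, r was 0.57, 0.41 and 0.57. For *Fabp3* in the 17 kidneys they were *Mthfd2l* (0.88), *Pf4* (0.87) and *Pcbd2* (0.87), with 0.76, 0.83 and 0.79 within dose groups. Among the members themselves, r within dose groups in liver ran from −0.19 between *Fabp1* and *Fabp3* to 0.43 between *Fabp2* and *Fabp3*, and for *Fabp7* with the other 4 it lay between −0.12 and 0.06.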

How the data were processed

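Total RNA of liver and kidney was measured on Affymetrix rat expression arrays, and arrays with batch effects had been removed before deposit, per the labels. The deposited values are log2 expression summarised by RMA (background correction, quantile normalization, median polish), per the submitters' processing notes. The version and chip definition of RMA, and whether organs were normalized jointly, were not given in the sources used here. Quantile normalization hides a shift common to most transcripts, and RMA compresses differences of dim probe sets. No probe set could be called above background. Of 31099 probe sets, 57 controls were left out and 31042 tested: 20826 with 1 gene symbol, 436 with several (not named) and 9780 with none. Gene IDs of 20758 matched a GRCr8 gene table used for names and neighbours. 0 pairs of arrays were identical. Groups came from array titles, of which 1, of a kidney at 10 mg/kg, lacks a replicate number.

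With limma 3.58.1 in R 4.3.3, lmFit and eBayes fitted the 7 dose groups of each organ, a slope over dose levels, and all 44 arrays in 14 groups for organ contrasts. P-values are two-sided and adjusted by Benjamini-Hochberg over 31042 probe sets and a threshold of 0.05, and every adjusted p is limma's. Fits were checked on simulated data. Replicates are called biological in the titles, without animal identifiers. *Xist* read high only in the vehicle arrays numbered 2 of both organs, which may come from 1 animal. In 16 liver and kidney pairs of the same dose and number, deviations from group means correlated at a median r of 0.02 (−0.1 to 0.18), so the organs were fitted as independent arrays, and a random block over these pairs (added after seeing the data, estimated correlation 0.031) changed no member's call. The members, lists and named genes were chosen with earlier results of these data known: the 5 members and 5 other family genes, list members past the threshold or else up to 3 with the smallest p at 500 mg/kg, and the 6 most and 4 least correlated with *Fabp7* (3 for each other member). Where a gene has several probe sets, the brightest in the organ on average was used. Same-numbered replicates of different doses deviated together only weakly (median r of 0.02 in liver and 0.05 in kidney, against −0.01 and −0.05 for different numbers). In liver 14 of 78 same-numbered pairs had r over 0.1, against 12 of 234 others, and in kidney 12 of 39 against 21 of 69. The numbers were not taken as pairs in the main fits, and a replicate block was fitted as an alternative.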

Additional observations from a re-analysis of the deposited data

How the results depend on the processing

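The count of members past the threshold was the same in 213 of 215 recomputations over all comparisons and alternatives (a filter on dim probe sets, a second quantile normalization, median centring, a mean-dependent robust prior, only the groups compared, a replicate block, a linear dose scale, each array left out), and no direction of a called value turned. Both exceptions lay between vehicle organs, where 4 of 5 members passed: 3 did with the dim filter, which left *Fabp2* untested, and 5 without vehicle kidney replicate 3. The *Fabp7* liver difference ranged from −0.76 to −0.68 at 500 mg/kg and from −0.54 to −0.42 at 300 mg/kg, and its slope from −0.109 to −0.096. With the replicate number as a block (the replicate block) they were −0.72, −0.49 and −0.102, and the block changed no call of a member. For single members 1031 recomputed values stayed, 19 moved by over 1 SD and 1, *Fabp5* between vehicle organs, passed. *Fabp12* in the liver trend passed with the dim filter (adjusted p = 0.0209), the second normalization (0.0232), the robust prior (0.0232), linear dose (0.0393) and without liver replicate 2 at 0.1 mg/kg (0.0351), replicates 1 (0.0445) and 4 (0.0361) at 10 mg/kg or replicate 2 at 300 mg/kg (0.0479). At 500 mg/kg it also passed with the robust prior (0.0483). In the fit of only the 2 groups compared, *Eci1* (0.0523), *Ehhadh* (0.18), *Cyp4a1* (0.0771) and *Acsl6* (0.263) lost their calls at 500 mg/kg. *Acsl6* also lost its call without vehicle replicate 3 (0.145) or 4 (0.0659), or 500 mg/kg replicate 1 (0.0995) or 4 (0.112). *Ehhadh* lost it without vehicle replicate 3 (0.0704) or 4 (0.0659) or 500 mg/kg replicate 4 (0.0769), and *Cyp4a1* without vehicle replicate 3 (0.0704) or 4 (0.0886) or 500 mg/kg replicate 1 (0.0546), 3 (0.0653) or 4 (0.0959). The cause was not tested. The number of all probe sets past the threshold in liver moved more: 38 at 300 mg/kg became 139 with the dim filter, 84 with the robust prior, 60 with the block, 16 with the second normalization and 2 in the fit of 2 groups. The 55 at 500 mg/kg became 104, 136, 42, 51 and 1 with these, and the 76 of the trend became 211, 167, 50 and 82, and 361 on a linear dose scale. With 1 array left out they ran from 0 to 22 (300 mg/kg), 9 to 84 (500 mg/kg) and 12 to 91 (trend), and the 0 of kidney at 500 mg/kg ran to 616. Leaving out vehicle replicate 2, or kidney replicate 1 at 1 mg/kg, at the lower doses was chosen after seeing the data. With 2 or 3 kidneys a group, the kidney intervals of *Fabp4*, *Fabp1* and *Fabp5* are wide, and smaller differences were not detectable.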
